A study of Mus musculus with 18 samples.

Results

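The cyclins and cyclin-dependent kinases (CDKs) that drive the cell cycle were followed in mouse embryonic stem (ES) cells and in differentiated (ED) cells made from them. The 10 genes were the D-type cyclins Ccnd1, Ccnd2 and Ccnd3, the E-type cyclins Ccne1 and Ccne2, the A-type cyclin Ccna2, the B-type cyclins Ccnb1 and Ccnb2, and the kinases Cdk1 and Cdk2. They were chosen by name, and a probe was taken where the accession given for it maps in RefSeq to 1 of these symbols. All 10 genes were found, with 14 of the 37246 probes on the array and 10 of its 34289 distinct gene names. Ccnd3 had 3 probes, Ccne2 and Cdk2 had 2 each, and the other genes had 1.

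The stem cells were wild-type, early passage ES cells that came originally from mouse blastocysts. They were kept on gelatin with leukemia inhibitory factor (LIF) and without feeder cells. ED cells were the same cells grown without LIF for 1 week or until Oct4, Sox2, Nanog and SSEA1 were lost, so that they are isogenic to ES cells and are defined by the loss of stem cell markers and not by a lineage. Cells were left unirradiated (ES and ED) or were given 10 Gy of ionizing radiation (IR) and collected after 15 min (radiation early, ESRE and EDRE) or after 4 h (radiation late, ESRL and EDRL). Each of the 6 groups had 3 samples, and each sample was hybridized alone to a one-colour Agilent array, 18 arrays in all. Unirradiated cells of each type were the control for both times. The labels do not say whether the 3 samples of a group came from separate cultures, so p-values measure only the spread between these samples, which may be technical. The strain was not given in the sources used here.

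Values are the log2 of the scanner's processed signal minus the 75th percentile of the same array, so that 0 is the signal at that percentile and a difference of 1 is 2-fold. Probes differ in brightness, and values were compared between samples within a probe and never between genes. A gene with several probes was represented by the probe with the highest mean over the 18 arrays. RNA came from whole cultures, in which fewer cells of a cell cycle phase and less RNA per cell cannot be told apart.

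Cyclins are the regulatory subunits that switch CDKs on. D-type cyclins pair with Cdk4 and Cdk6 and respond to growth signals in G1, E-type cyclins pair with Cdk2 at the entry into S phase, cyclin A2 acts with Cdk2 and Cdk1 in S and G2 phase, and B-type cyclins with Cdk1 drive mitosis. Mouse ES cells are known for a short G1 phase, for high cyclin E and CDK activity through the cycle and for low levels of D-type cyclins, and their G1 phase lengthens as they differentiate.

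Transcription of these genes is classically tied to a few promoter elements, which were looked for in the RefSeq promoters that were at hand. Promoters were found for 6 of the 10 genes, 7 promoters in all because Ccnd3 has 2 starts. They are shown for the genes whose RNA differed between ES and ED cells, with Cdk1 added because its promoter held every kind of element searched. Each line gives the 250 bases before the start of transcription, 5′ to 3′ in the direction of the gene, from build GRCm38.p6. Capitals mark the elements that were searched on both strands. These were the CCAAT box (CCAAT), the cell cycle homology region or CHR (TTTGAA or TTCGAA), E2F sites (TTTGGCGC, TTTCCCGC or TTTCGCGC) and the GC box (GGGCGG).
Ccnd3, first start (chr17:47504801-47505050, plus strand): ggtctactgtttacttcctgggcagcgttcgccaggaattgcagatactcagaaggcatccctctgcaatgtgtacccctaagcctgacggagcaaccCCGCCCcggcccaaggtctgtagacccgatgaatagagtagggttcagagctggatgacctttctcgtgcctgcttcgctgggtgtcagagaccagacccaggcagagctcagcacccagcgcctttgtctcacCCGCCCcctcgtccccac
Ccnd3, second start (chr17:47593217-47593466, plus strand): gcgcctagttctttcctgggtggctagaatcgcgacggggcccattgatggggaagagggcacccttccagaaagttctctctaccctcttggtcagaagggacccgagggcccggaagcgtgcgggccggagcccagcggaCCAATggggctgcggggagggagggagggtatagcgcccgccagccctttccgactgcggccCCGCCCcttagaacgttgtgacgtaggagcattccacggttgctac
Ccne1 (chr7:38107491-38107740, minus strand): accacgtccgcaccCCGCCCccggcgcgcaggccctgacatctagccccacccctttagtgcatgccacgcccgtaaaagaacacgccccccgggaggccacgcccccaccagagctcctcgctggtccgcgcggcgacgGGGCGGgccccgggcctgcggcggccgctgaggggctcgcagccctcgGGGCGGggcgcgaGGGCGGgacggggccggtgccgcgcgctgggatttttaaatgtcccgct
Ccnb1 (chr13:100786487-100786736, minus strand): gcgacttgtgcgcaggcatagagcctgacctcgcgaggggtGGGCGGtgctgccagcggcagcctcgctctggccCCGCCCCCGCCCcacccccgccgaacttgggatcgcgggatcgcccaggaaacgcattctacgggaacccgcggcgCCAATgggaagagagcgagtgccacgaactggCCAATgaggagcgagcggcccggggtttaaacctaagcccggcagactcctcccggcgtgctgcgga
Cdk1 (chr10:69352913-69353162, minus strand): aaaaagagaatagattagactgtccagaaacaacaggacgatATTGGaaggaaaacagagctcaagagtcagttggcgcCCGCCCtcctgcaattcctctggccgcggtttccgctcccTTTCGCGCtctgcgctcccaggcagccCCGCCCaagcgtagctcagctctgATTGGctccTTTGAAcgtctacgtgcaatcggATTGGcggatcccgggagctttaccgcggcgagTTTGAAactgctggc

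The promoters of the mitotic genes held several CCAAT boxes. Cdk1 had 3 of them, 2 CHR matches and 1 E2F match, Ccnb2 had 3 CCAAT boxes and 1 CHR match, and Ccnb1 had 2 CCAAT boxes and no CHR match. The Ccne1 promoter had 4 GC boxes and none of the other elements in this window. Cdk2 had 1 CCAAT box, 1 E2F match and 5 GC boxes. For Ccnd3 the first start had 2 GC boxes, and the second start had 1 GC box and 1 CCAAT box. Among all 32851 promoters of the table, a CCAAT box was present in 33.8%, either CHR form in 17.1%, any of the E2F forms in 1.53% and a GC box in 32.7%. GC boxes and E2F forms are both rich in G and C, and a match describes the letters and shows no binding.

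**Figure D1:**
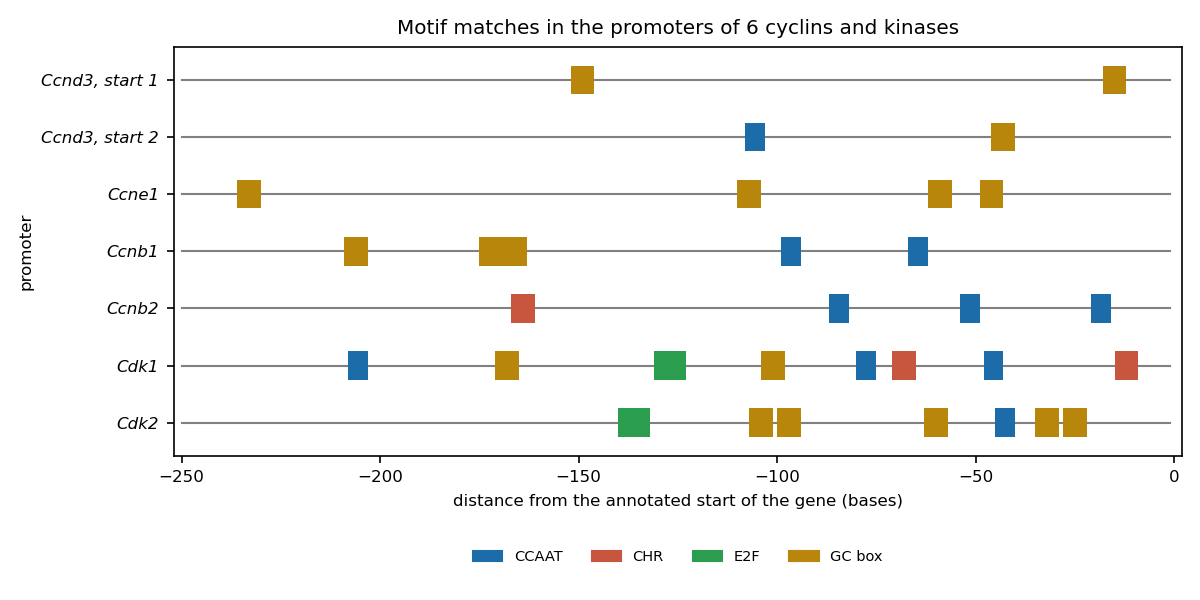
Positions of the searched elements in the promoters of 6 genes. The x axis is the distance in bases from the start of transcription, each row is 1 promoter, and each mark is 1 match on either strand. Cdk1 and Ccnb2 have 3 CCAAT boxes each, and Ccne1 has GC boxes alone.

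Most stem cell markers followed the labels of the cultures. Of 9 stem cell markers, 8 could be tested and 7 were lower in ED than in ES cells, with a summed level of 523 to 532 in ES samples and 17.5 to 23 in ED samples (in units of the array's 75th percentile). Zfp42 was not well above background in ED cells. Sox2 is among the markers whose loss defines ED cells, but its RNA was still well above background there. It had 4.67, 4.69 and 4.69 in ES samples and 2.21, 2.31 and 2.43 in ED samples. Klf4 had a mean of 3.84 in ES and 3.89 in ED cells. Of 7 mesenchymal markers, 6 were higher and 1 was lower in ED cells, and their summed level was 32.7 to 34.7 in ES and 413 to 527 in ED samples. Endodermal markers were lower in ED cells for 2 of 2 tested, heart markers for 3 of 3, and neural markers were higher for 1 and lower for 1 of 4. The part of this shift in cell type in the differences given here was not tested. On single arrays, 49.5% to 86.1% of probes stood well above background. EDRE samples 2 and 3 stood apart. Their 75th percentile was 875 and 1155 against 1952 to 4268 on the other arrays, and the scanner marked 24.4% and 23.8% of their spots as outliers. Spots marked in this way were left out, which removed 7 of the 10 genes on each of these arrays. The next lowest 75th percentile, 1952, was that of ESRL sample 1, with 63.3% of its probes well above background. Some fits below leave out ESRL sample 1 together with EDRE samples 2 and 3. Arrays were scanned in 6 sets, taken here as slides, and no slide held both an irradiated group and its unirradiated control of the same cell type, or both ES and ED. Slide and group therefore cannot be fully told apart in those comparisons. The slide as a random effect is also given for ED against ES and for irradiated against unirradiated ED cells.

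Differentiation was accompanied by opposite changes within the cyclin families. In ED cells the D-type cyclins Ccnd1 and Ccnd2 were about 10 to 16 times as high as in ES cells, and the E-type cyclin Ccne1 and the D-type cyclin Ccnd3 were lower by 9.62-fold and 3.76-fold. Changes of Ccna2, Ccnb1 and Ccne2 were below 2-fold. A test was possible for 8 of the 10 genes, and 7 of them (87.5%) were past the threshold, an adjusted p under 0.05 with no limit on fold, 4 higher and 3 lower in ED. Of 26139 probes tested, each the representative probe of its gene name, 19.2% were higher and 31.6% lower in ED cells. From here on, shares and medians over all probes count only such representative probes. The median change was -0.05 over the 8 genes and -0.18 over all probes.

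Scaling matters for small changes in this comparison. With arrays scaled to their median instead of their 75th percentile, the median of all probes moved from -0.18 to 0.46, and the share of calls that were higher in ED moved from 37.8% to 62.9% (52.9% with quantile normalization). The direction of each of the 7 genes was kept under both. With median scaling, the changes were 3.95 for Ccnd1, 4.62 for Ccnd2, -1.25 for Ccnd3, -2.62 for Ccne1, 1.38 for Ccne2 and 1.44 for Ccna2, all still past the threshold. Ccnb1 was then at -0.19 with an adjusted p of 0.36.

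**Figure D2:**
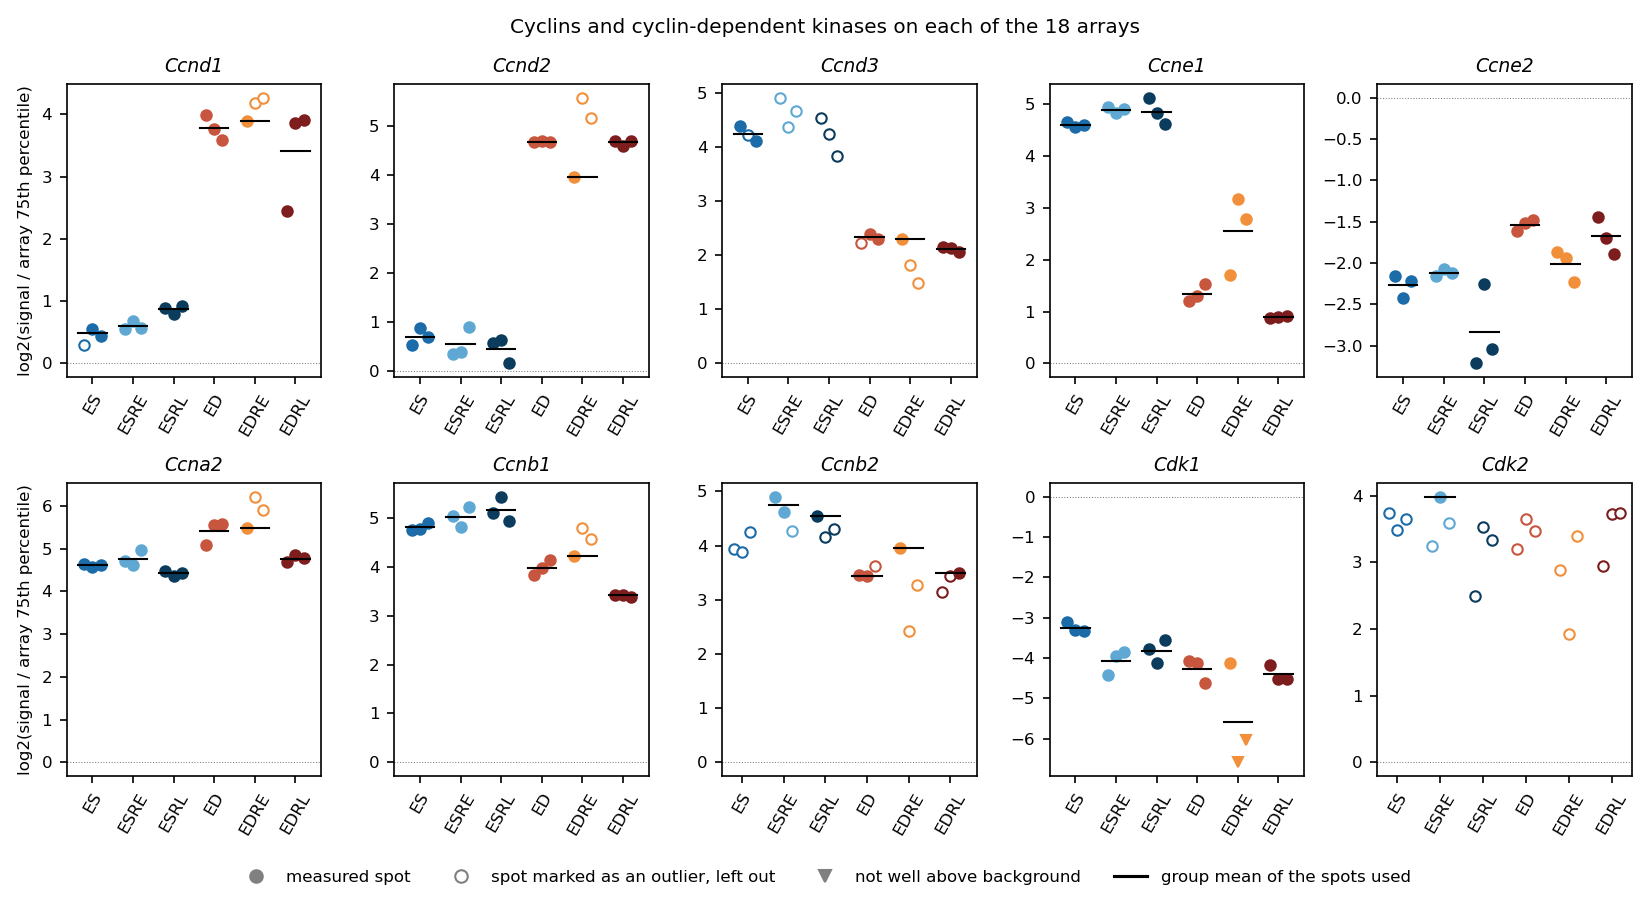
Normalised log2 value (y axis, with the array's 75th percentile at 0) of each gene on each of the 18 arrays, by group. Points are single arrays, open points are spots that the scanner marked as outliers and that were left out, triangles are not well above background, and bars are means of the spots used. Ccnd1 and Ccnd2 are high in all ED groups, and Ccne1 is high in all ES groups.

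Ccnd1 encodes cyclin D1, the G1 cyclin that couples growth factor signals to Cdk4 and Cdk6. Its value was 0.55 and 0.44 in ES samples 2 and 3 (the spot of sample 1 was left out) and 3.99, 3.77 and 3.59 in the ED samples. All ED values lay far above all ES values. The difference was 3.29 on the log2 scale (SE 0.36, 95% interval 2.51 to 4.07), or 9.77-fold, with an adjusted p of 8.34e-06.

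Cyclin D2, the product of Ccnd2, has the same partners. ES samples had 0.53, 0.86 and 0.69 and ED samples 4.67, 4.68 and 4.66. The ED samples were almost identical, and the groups did not overlap. The difference of 3.98 (SE 0.18, 95% interval 3.58 to 4.37) was 15.8-fold, with an adjusted p of 1.00e-09, and it was the widest among the 8 genes tested here.

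Cyclin D3 ran the other way. The Ccnd3 probe gave 4.39 and 4.13 in ES samples 1 and 3, and 2.39 and 2.31 in ED samples 2 and 3, with 1 spot left out in each group. Both ES values were above both ED values, and the difference was -1.91 (SE 0.21, adjusted p = 0.000289), a fall of 3.76-fold. The third Ccnd3 probe gave -1.97 (adjusted p = 0.000796). The second probe had no ES value, because its ES spots were marked as outliers. With marked spots kept, the representative probe gave -1.94.

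Ccne1, which encodes cyclin E1, the partner of Cdk2 at the start of S phase, was the E-type cyclin that fell. Its GC-box promoter is printed above. ES samples had 4.66, 4.56 and 4.60, and ED samples had 1.20, 1.29 and 1.53. The 3 ES values lay within 0.1 of each other and about 3 log2 units above the ED values. The difference was -3.27 (SE 0.27, 95% interval -3.85 to -2.69), 9.62-fold, with an adjusted p of 8.60e-08.

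Its paralog Ccne2 was modestly higher in ED cells. The representative probe had -2.15, -2.42 and -2.22 in ES and -1.61, -1.51 and -1.48 in ED samples. The groups did not overlap, and the difference was 0.73 (SE 0.21, adjusted p = 0.00968), or 1.66-fold. The second probe had -3.67, -4.17 and -4.10 in ES and -2.06, -2.14 and -1.94 in ED samples. It also did not overlap and gave a wider difference, 1.93 (3.82-fold, adjusted p = 3.14e-06), so the probes shared the direction but not the size.

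Among the S, G2 and M phase cyclins, Ccna2 was higher and Ccnb1 was lower in ED cells. Ccna2 had 4.65, 4.57 and 4.61 in ES and 5.09, 5.57 and 5.58 in ED samples, a difference of 0.80 (SE 0.16, adjusted p = 0.00109), 1.74-fold. Ccnb1 had 4.76, 4.78 and 4.90 in ES and 3.83, 3.97 and 4.13 in ED samples, a difference of -0.84 (SE 0.17, adjusted p = 0.000947), 1.79-fold. Neither gene had overlapping groups. Ccnb2 could not be tested as planned because all 3 ES spots were marked as outliers. With marked spots kept it had 3.93, 3.87 and 4.26 in ES and 3.46, 3.43 and 3.62 in ED samples, a difference of -0.52 (95% interval -1.16 to 0.12, adjusted p = 0.173).

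The kinases showed no call. Cdk1, the mitotic kinase, was measured by a dim probe that was well above background on 16 of 18 arrays. It had -3.11, -3.31 and -3.33 in ES and -4.06, -4.12 and -4.62 in ED samples. The ED values were all below the ES values, and the difference of -1.02 (SE 0.44, 95% interval -1.96 to -0.07) was 2.03-fold, with an adjusted p of 0.0675. EDRE samples 2 and 3, in which the probe was not well above background, entered the shared spread, and in the fit without them and without ESRL sample 1 the adjusted p for the same difference was 0.00124. For Cdk2, the S phase kinase, 17 of 18 spots of the representative probe were marked as outliers. With marked spots kept, Cdk2 had 3.74, 3.48 and 3.65 in ES and 3.20, 3.65 and 3.47 in ED samples. These overlapped, and the interval of the difference of -0.19 ran from -0.96 to 0.58 (adjusted p = 0.719).

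With the slide as a random effect, 5 of the 7 calls between ED and ES remained, in a fit that called 28.8% of all 26139 probes against 50.8% without it. Ccnd1 was then at 3.32 (adjusted p = 0.00438), Ccnd2 at 3.79 (1.94e-06), Ccnd3 at -1.91 (0.00928), Ccne1 at -3.22 (2.08e-05) and Ccnb1 at -0.97 (0.0453). Ccna2 and Ccne2 were at 0.68 and 0.66 with adjusted p-values of 0.141 and 0.299. Each of the 7 calls was kept when any of the 6 ES and ED samples was left out.

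**Figure D3:**
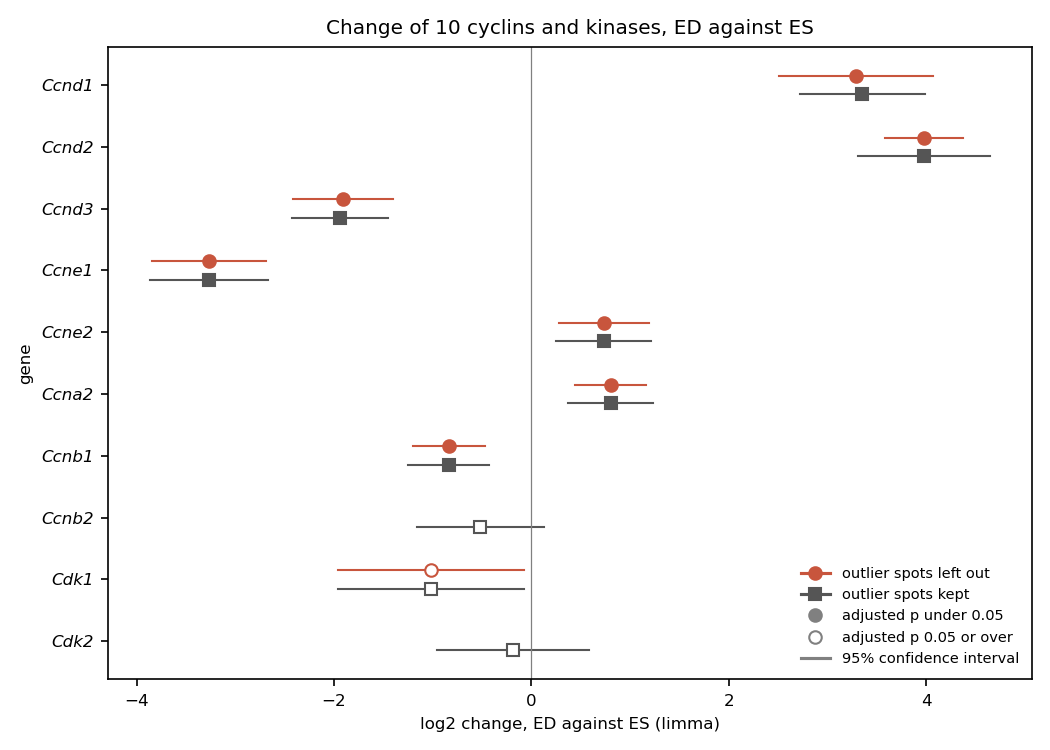
Change of each gene from ES to ED cells on the log2 scale (x axis), with 95% intervals. Circles leave out the spots marked as outliers, squares keep them, and filled symbols have an adjusted p under 0.05. Ccnd2 lies farthest to the right at 3.98, Ccne1 farthest to the left at -3.27, and Ccnb2 and Cdk2 have a square only.

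Irradiation of ES cells gave no change past the threshold in these genes. At 15 min, none of the 7 genes tested was past the threshold in ESRE against ES, where 0.35% of 25415 probes were higher and 0.197% lower (2410 probes had an unadjusted p under 0.05). Changes lay between -0.82 for Cdk1 (SE 0.44) and 0.29 for Ccne1 (SE 0.27). Cdk1 had -4.42, -3.94 and -3.86 in ESRE samples, each below the 3 ES values. The interval of its change was -1.77 to 0.12 (adjusted p = 0.630). In the fit without EDRE samples 2 and 3 and ESRL sample 1, Cdk1 was past the threshold here. Ccne1 had 4.95, 4.83 and 4.91 in ESRE samples, each above the 3 ES values, and the interval of its change was -0.29 to 0.87.

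At 4 h, ESRL against ES again had none of 7 genes past the threshold, beside 1.67% of 25503 probes higher and 7.5% lower. The median of all probes was -0.18, and with median scaling it was 0.13 and the share of calls that were higher moved from 18.2% to 51.3%. Ccnd1 had 0.89, 0.80 and 0.92 in ESRL samples, all above ES, but the change of 0.38 had a 95% interval of -0.41 to 1.16 and an adjusted p of 0.575. Ccnb1 had 5.10, 5.43 and 4.93, all above ES, with a change of 0.34 (adjusted p = 0.230). It was past the threshold with median scaling, where its change was 0.65 (adjusted p = 0.0389), and in the same fit of the authors' value table (0.65, adjusted p = 0.0476). Ccne2 had -3.21, -2.26 and -3.03, which overlapped ES, with a change of -0.57 (adjusted p = 0.112). Without ESRL sample 2 its change was -0.86 (adjusted p = 0.0036). That fit rests on ESRL samples 1 and 3. Sample 1 had the lowest Ccne2 value, and its array had the lowest 75th percentile of the ES groups (1952). The second Ccne2 probe changed by -0.21 (adjusted p = 0.591), and its groups overlapped.

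Between the times, ESRL against ESRE gave no call among 8 genes tested, beside 1.37% of 22572 probes higher and 4.91% lower. Ccne2 came nearest, with -2.16, -2.07 and -2.13 in ESRE samples, a change of -0.72 (SE 0.21) and an adjusted p of 0.0595. It was -0.53 within the slide that held 2 samples of each group, and it passed without ESRL sample 2 (adjusted p = 0.00109). The second Ccne2 probe gave -0.43 (adjusted p = 0.257), and its groups overlapped.

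In differentiated cells at 15 min, Ccne1 was the gene of 9 tested that was past the threshold in EDRE against ED. Of 22322 probes, 3.58% were higher and 3.69% lower. EDRE samples had 1.71, 3.17 and 2.79 for Ccne1, all above the ED values of 1.20 to 1.53, and the change was 1.22 (SE 0.27, 95% interval 0.64 to 1.79, adjusted p = 0.0205). The EDRE values were far from each other, and the high ones were those of samples 2 and 3. Before scaling, the Ccne1 signal in the EDRE samples was 9921, 7878 and 7983 against 9788, 9242 and 10026 in the ED samples, so it was not higher on these arrays until it was divided by their low 75th percentiles. Without EDRE samples 2 and 3 and ESRL sample 1 the change was 0.37 (adjusted p = 0.184), and with the slide as a random effect it was 1.02 (adjusted p = 0.529). Leaving out ED sample 1, ED sample 2, EDRE sample 2 or EDRE sample 3 also ended the call, with changes of 0.91 to 1.64 over the 6 such fits. The part of the low signal of these arrays in the result was not tested beyond these values.

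For the other genes only EDRE sample 1 often remained. Ccnd1 had 3.89 there, Ccnd2 3.94, Ccna2 5.49 and Ccnb1 4.22. The change of Ccnd2 against ED was -0.73 with that sample alone. With marked spots kept the change of Ccnd2 was 0.22 (adjusted p = 0.646), so its direction was not settled. Cdk1 had -4.13, -6.59 and -6.04 in EDRE samples, and the last 2 were not well above background. Its change of -1.32 had an adjusted p of 0.0744.

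At 4 h in differentiated cells, EDRL against ED gave none of 9 genes past the threshold, beside 1.67% of 23149 probes higher and 0.661% lower. The nearest were the cyclins of the later cycle. Ccna2 had 4.68, 4.85 and 4.78 in EDRL samples, all below ED, with a change of -0.64 (SE 0.16) and an adjusted p of 0.0567. Ccnb1 had 3.43, 3.43 and 3.38, all below ED, with a change of -0.56 (SE 0.16) and an adjusted p of 0.107. Ccne1 had 0.88, 0.90 and 0.91, likewise below ED, with a change of -0.44 (SE 0.27). When EDRE samples 2 and 3 and ESRL sample 1 were left out of the shared spread, the changes were the same and all 3 were past the threshold, with adjusted p-values of 0.0131 for Ccna2, 0.0277 for Ccnb1 and 0.0153 for Ccne1. The share of all probes past the threshold in that fit is not given here, so the 3 cannot be set beside it. With the slide as a random effect none of the 9 genes was past the threshold. The D-type cyclins Ccnd1 (2.45, 3.87 and 3.91) and Ccnd2 (4.69, 4.59 and 4.69) overlapped ED, with changes of -0.37 (95% interval -1.06 to 0.32) and -0.02 (95% interval -0.40 to 0.37).

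Between the times in differentiated cells, 2 of 9 genes tested were past the threshold, both lower at 4 h (22.2%), beside 4.84% of 21981 probes higher and 6.13% lower in EDRL against EDRE. The balance over all probes turned when the slide was modelled, from 44.1% of calls higher to 71.7% as a random effect and 75.8% as a fixed block. Ccne1 fell by 1.66 on the log2 scale (SE 0.27, adjusted p = 0.00237), and it stayed past the threshold in each of the 6 fits that left out 1 EDRE or EDRL sample. It was not past the threshold when the spread was taken from EDRE and EDRL alone (adjusted p = 0.183). Within the slide that held EDRE sample 1 and the 3 EDRL samples, the difference was -0.82, and with the slide as a fixed block its adjusted p was 0.0267. Ccnb1 was at -0.80 (SE 0.23, adjusted p = 0.0435), with 1 EDRE sample measured. That sample is assumed to vary like those of the other groups, which supply the spread, and the value is wholly within that slide. The fixed block gave an adjusted p of 0.0565, and the call ended when any 1 of the 5 other EDRE and EDRL samples was left out (adjusted p 0.0615 to 0.106). With marked spots kept, Ccnb1 was at -1.11 (adjusted p = 0.00253) and Ccna2 at -1.10 (adjusted p = 0.00348). The spots so added were those of EDRE samples 2 and 3. Before scaling, Ccnb1 was 24202 and 27313 there, against 56346 in EDRE sample 1 and 31382 to 34623 in EDRL samples. Ccna2 was 65057 and 69482, against 136780 and 74604 to 93157. The part of the low signal of these 2 arrays in the changes was not tested.

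Scaling also moved the balance of calls after IR. With median scaling the share of calls that were higher moved from 49.3% to 78.8% in EDRE against ED, from 71.7% to 89.4% in EDRL against ED and from 21.9% to 42.4% in ESRL against ESRE. In EDRL against EDRE it moved to 36.2%, and to 10.1% with normexp background correction. The direction of Ccne1 and Ccnb1 in EDRL against EDRE was kept in all of these.

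Whether ED and ES cells responded differently was tested directly as a difference of changes. At 15 min none of 7 genes was past the threshold, beside 1.99% of 25670 probes in either direction, and Ccne1 came nearest at 0.93 (SE 0.38, adjusted p = 0.212). At 4 h none of 7 was, beside 1.14% of 25913 probes in either direction. Ccnb1 was nearest there at -0.91 (SE 0.24, adjusted p = 0.100), with a change of 0.34 in ES and -0.56 in ED cells. Without EDRE samples 2 and 3 and ESRL sample 1 that difference was -0.93 with an adjusted p of 0.0319. It was the only 1 of the 7 genes to pass in that fit, for which the share of all probes is not given here.

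**Figure D4:**
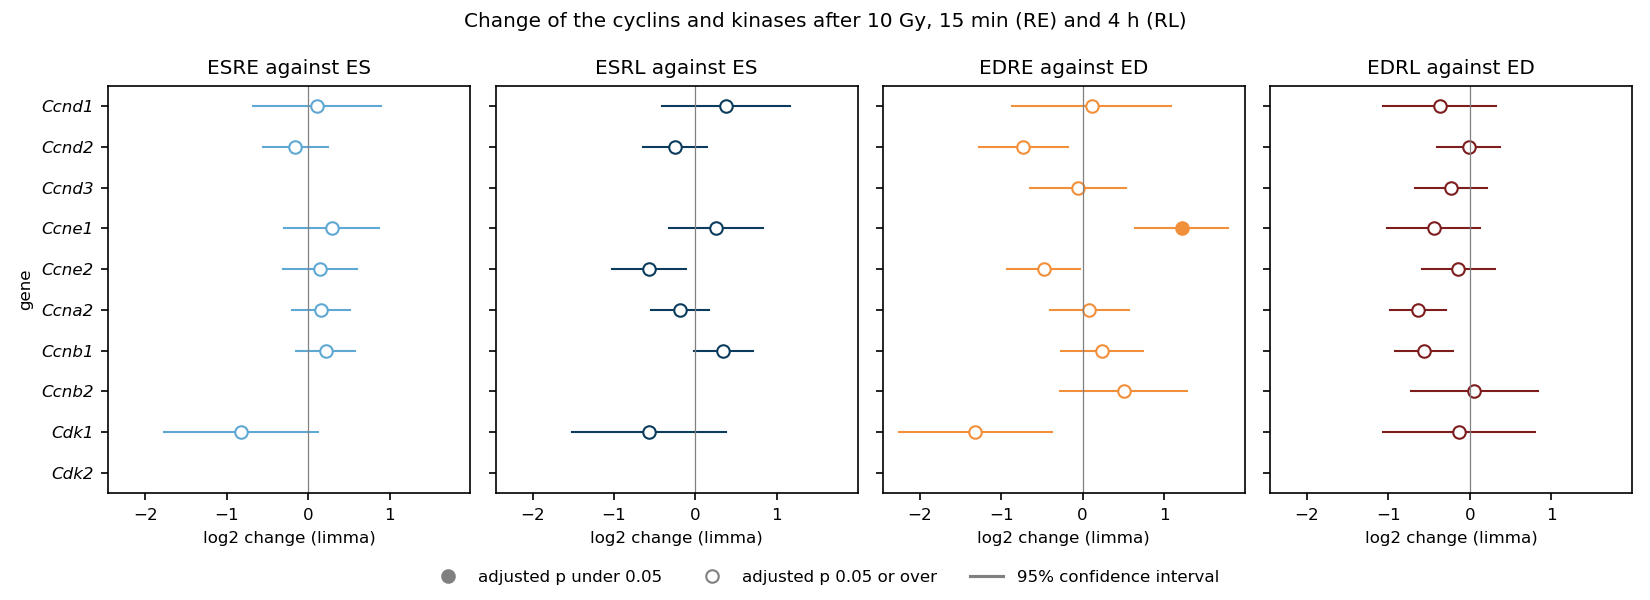
Changes of each gene after 10 Gy IR on the log2 scale (x axis) with 95% intervals, for ES and ED cells at 15 min and 4 h against their unirradiated controls. Filled points have an adjusted p under 0.05, which is the case for Ccne1 in EDRE against ED alone. Genes without a point had no measured spot in at least 1 of the groups.

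The order of the 6 groups followed the cell type for the cyclins with the widest range among those measured in all 6. Ccnd3 (2.14 log2 units over 4 groups) and Ccnb2 (measured in 5 groups) are not ordered here. Ccnd2 ranged over 4.23 log2 units between group means. ED (4.67) and EDRL (4.66) overlapped, then EDRE (3.94, 1 sample), then ES (0.69), ESRE (0.54) and ESRL (0.45), which overlapped. With marked spots kept the EDRE mean of Ccnd2 was 4.89, above that of ED. Ccne1 ranged over 4.00 units, with ESRE (4.90), ESRL (4.86) and ES (4.61) overlapping in turn, then EDRE (2.56), ED (1.34) and EDRL (0.89) without overlap. Ccnd1 ranged over 3.40 units, with EDRE (3.89, 1 sample), ED (3.78) and EDRL (3.41) overlapping, then ESRL (0.87), ESRE (0.60) and ES (0.49) without overlap. Ccnb1 was split in the same way over a narrower range, with ESRL (5.15), ESRE (5.03) and ES (4.81) overlapping in turn, above EDRE (4.22, 1 sample), ED (3.98) and EDRL (3.41). For these 4 genes every irradiated group stood with its own cell type when marked spots were left out. With marked spots kept, the EDRE mean of Ccnb1 was 4.52. Its EDRE sample 2, at 4.79, then lay within the ES range of 4.76 to 4.90.

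Other genes were less clearly split. Ccna2 was highest in EDRE (5.49, 1 sample) and ED (5.41), followed by EDRL (4.77), ESRE (4.76) and ES (4.61), which overlapped in turn, and then ESRL (4.42). EDRL samples thus sat with the ES groups for Ccna2. Cdk1 was highest in ES (-3.25), apart from the others, which overlapped in turn from ESRL (-3.82) down to EDRE (-5.59). Ccne2 overlapped between every pair of neighbours, from ED (-1.53) to ESRL (-2.83).

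Genes that act with the cyclins and CDKs were counted in 6 lists. The counts between ED and ES stand beside 19.2% of all probes higher and 31.6% lower in ED cells. Of 16 other cyclins, 13 were tested between ED and ES, with 3 higher, 2 lower and a median of -0.12, against -0.18 for all probes. Ccna1, the germ line A-type cyclin, was not well above background on any ED array and was at least 45.2-fold lower in ED, with 1 ES sample measured (adjusted p = 0.000137). Ccno was higher by 2.30 (adjusted p = 9.85e-09), and Ccnj was at -1.43 (adjusted p = 7.90e-05). Of 16 other CDKs, 13 were tested, with 4 higher, 2 lower and a median of 0.29. Cdk14 was higher by 3.98 (adjusted p = 2.76e-08) and Cdk19 by 1.39 (adjusted p = 0.00599), and Cdk18 was at -2.82 (adjusted p = 3.66e-07). The partners of the D-type cyclins moved little beside Ccnd1 and Ccnd2. Cdk4 was higher by 0.54 (SE 0.14, adjusted p = 0.0054), and Cdk6 was at 0.42 (adjusted p = 0.457).

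Of 15 direct regulators of CDK activity, 13 were tested, with 5 higher, 4 lower and a median of 0.01. The CDK inhibitors ran in both directions. Cdkn2c, which binds Cdk4 and Cdk6, had -0.82, -0.93 and -1.07 in ES and 3.28, 3.41 and 3.29 in ED samples, a difference of 4.26 (adjusted p = 4.06e-09). Cdkn1c (p57) was at -8.49 (1 ES sample measured, adjusted p = 1.47e-07). Cdkn2a was lower (adjusted p = 0.000594), with -3.56 in the 1 ES sample measured and -9.39, -6.67 and -9.25 in ED samples, where 1 of 3 arrays was well above background, so that no size is given. Cdkn1b (p27), named after its values were seen, had -0.20 in the 1 ES sample measured and 2.52, 3.04 and 3.15 in ED samples (adjusted p = 1.38e-06). Cdkn1a (p21) was higher by 0.80 (adjusted p = 0.0383), but at 0.0699 with marked spots kept. Wee1, which phosphorylates and holds back Cdk1, was at -0.68 (adjusted p = 0.0227), and at -0.04 with median scaling.

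Of 24 genes of cyclin degradation, 21 were tested, with 3 higher, 5 lower and a median of -0.18. Fbxo4, an F-box protein, was higher by 3.60 (adjusted p = 1.16e-08). Fbxw7, the receptor for cyclin E in its ubiquitin ligase, was at -1.52 (adjusted p = 0.0394), and Anapc7, a subunit of the anaphase-promoting complex, was at -1.28 (adjusted p = 0.0149), but neither passed with median scaling. Of 24 transcription factors of cell cycle genes, 20 were tested, with 5 higher, 3 lower and a median of 0.10. Foxm1 was higher by 2.22 (adjusted p = 2.13e-05), Mybl2 was at -3.73 (adjusted p = 1.57e-08), and Mycn was lower (adjusted p = 7.41e-08). Mycn had 4.14 in the 1 ES sample measured and -7.17, -7.42 and -7.49 in ED samples, where 1 of 3 arrays was well above background, so that no size is given. Both Foxm1 and Mybl2 act on genes of G2 and M phase, and they differed in direction. Of 16 proliferation markers, 14 were tested, with 2 higher, 2 lower and a median of -0.17. Mki67 was higher by 1.02 (adjusted p = 0.00147), while Mcm2 (-1.08, adjusted p = 3.37e-05) and Aurka (-1.08, adjusted p = 0.00769) were lower, a call that both lost with median scaling.

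**Figure D5:**
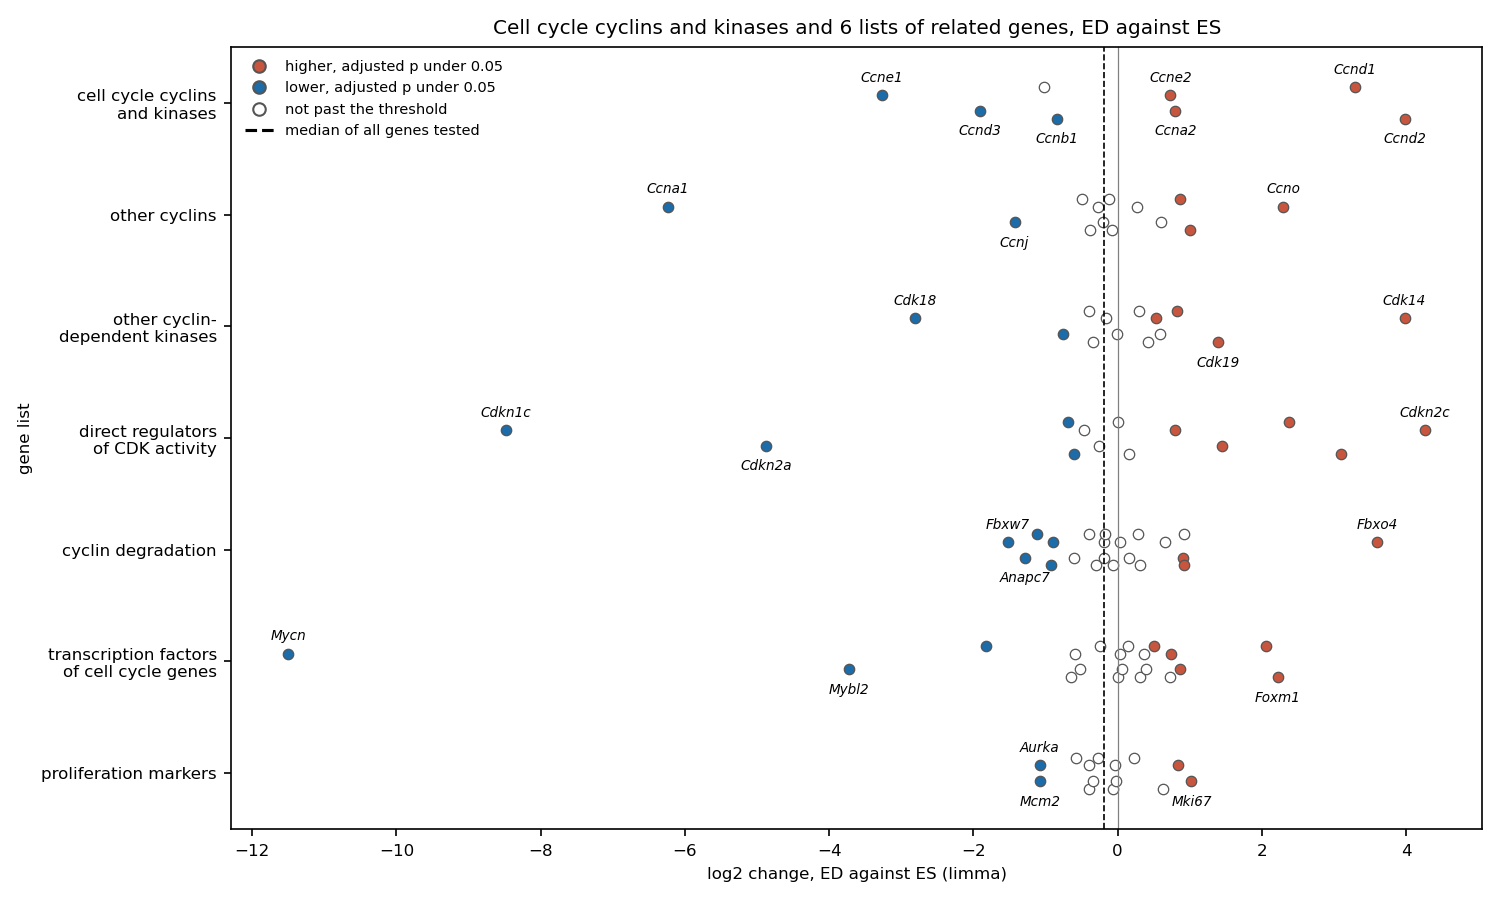
Change from ES to ED cells on the log2 scale (x axis) for the tested cyclins and kinases of the cell cycle and for every tested gene of the 6 lists (rows). Each point is 1 gene, filled where its adjusted p is under 0.05, and the dashed line is the median of all probes at -0.18. Points lie on both sides of that line in every row, and Ccna1, Cdkn2a and Mycn are drawn at their fitted change, which is no measure of its size because most or all ED arrays were not well above background.

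Median scaling changed these counts to 6 higher and 2 lower for other cyclins, 7 and 1 for other CDKs, 6 and 2 for direct regulators, 8 and 1 for degradation genes, 12 and 3 for transcription factors, and 6 and 0 for proliferation markers, beside 9120 higher and 5386 lower of all 26139 probes. With the slide as a random effect they were 1 and 2, 2 and 1, 4 and 2, 2 and 1, 2 and 3, and 0 and 1 in the same order, beside 2861 higher and 4659 lower of all probes.

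After IR few of the listed genes moved. In ESRL against ES, Ccno was higher by 0.56 (adjusted p = 0.0228) and Anapc5 by 0.58 (adjusted p = 0.0367), and Ccnt2 (-1.54, adjusted p = 0.0423) and Lin37 (-1.33, adjusted p = 0.0263) were lower. In EDRL against ED, Ccng1 was higher by 1.61 (SE 0.25, adjusted p = 0.00363). This cyclin is a known p53 target. Ccng1 had 4.17, 4.05 and 3.86 in ED and 5.91, 5.50 and 5.51 in EDRL samples, which did not overlap. In ES cells Ccng1 was at 0.30 (adjusted p = 0.519) at 4 h, and the difference between the cell types was 1.31 with an adjusted p of 0.113, so a difference in response was not shown. Ccno was also higher in EDRL by 0.87 (adjusted p = 0.0026).

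Of the listed genes, 2 of 11 direct regulators tested and 1 of 16 proliferation markers tested were lower in EDRL against ED, beside 0.661% of all probes. They were Cdc25b (-0.81, adjusted p = 0.041) and Cdc25c (-0.95, adjusted p = 0.0403), phosphatases that activate Cdk1, and Plk1 (-1.32, adjusted p = 0.0147), a mitotic kinase. Cdc25b was also the gene of the lists whose change at 4 h differed between the cell types (-1.29, adjusted p = 0.0431). Cdkn1a was at 0.57 (adjusted p = 0.428) in EDRL against ED and at -0.73 (adjusted p = 0.15) in ESRL against ES, and Wee1 was at -0.45 (adjusted p = 0.404) and -0.31 (adjusted p = 0.445). Between the times in ED cells, 2 of 12 other cyclins and 2 of 12 other CDKs tested were higher in EDRL and none was lower. Of 11 direct regulators, 2 were lower, and of 21 degradation genes, 1 was higher and 4 were lower. Of 17 transcription factors, 1 was higher and 1 lower, beside 4.84% of all probes higher and 6.13% lower. The 15 proliferation markers tested between the times had a median of -0.55, against -0.10 for all probes. Of these markers, 4 were lower in EDRL than in EDRE, beside 6.13% of all probes. They were Plk1 (-1.99, adjusted p = 0.00143), Mcm6 (-1.11, adjusted p = 0.028), Mki67 (-1.03, adjusted p = 0.0463) and Top2a (-0.99, adjusted p = 0.0382), named after their values were seen. Much of this rested on EDRE samples 2 and 3, the arrays that stood apart. Mcm6 had 4.85, 6.47 and 5.94 in EDRE samples and 4.61 to 4.70 in EDRL samples, and Top2a had 5.93, 7.18 and 7.05 and then 5.61 to 5.87, so in both genes EDRE sample 1 lay close to EDRL. Mki67 had 1 EDRE sample measured. Without EDRE samples 2 and 3 and ESRL sample 1, the median of the proliferation markers between the times was -0.20. At 15 min in ED cells, Bub1, Mcm6 and Tyms were higher than in ED (adjusted p 0.0351 to 0.0417), and none of the 15 markers was past the threshold without those 3 samples. Cdk7 was lower (adjusted p = 0.0434) with 1 EDRE sample measured, at -1.81 against -0.18 and -0.17 in ED samples, and Nfyb was lower (adjusted p = 0.0442) with 1 of 3 EDRE arrays well above background. With the slide as a random effect none of the listed genes was past the threshold in EDRL against ED (Ccng1 1.87, adjusted p = 0.232).

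Genes outside the group whose values ran most like those of the 4 widest members were sought over 16965 probes by Pearson's r over the arrays. Ccnd2 was closest to Mrc2 (r = 0.9952 over 16 arrays) and to 2 transcripts without a gene symbol (r = 0.9961 and 0.9948). Ccne1 was closest to Plekha2 (0.9943), Hal (0.9938) and Pim2 (0.9933) over 18 arrays. Ccnd1 was closest to Prkar2b (0.9883) and Col16a1 (0.9849) and to a transcript without a symbol (0.9802) over 15 arrays. Cdk1 had no gene as close, with Csnk1g3 (0.9289), Itgb3 (0.9262) and Hrct1 (0.9244) over 18 arrays. These arrays share cell type, slide and scaling, so r is given as a description only.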

How the data were processed

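Total RNA of 18 cell samples was labelled with Cy3 and hybridized to one-colour Agilent arrays, 1 per sample, with no pooling. Per the labels, the deposited processed signal is a linear intensity made by the authors with Agilent Feature Extraction (version 9.1 in the submitters' processing notes, 10.7.3.1 in the file headers), which subtracts background. A value table of 30133 probes that the authors deposited, on a log2 scale, served as an alternative.

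Control spots (1417) and 200 unmarked negative controls were left out of the 39448 spots of each array, and spots of 1 probe were averaged, leaving 37246 probes, of which 22216 were named through RefSeq. The scanner software marks outlier spots, either uneven ones or ones far from their copies, and these were dropped. The log2 signal minus the 75th percentile of its array was fitted with 1 mean per group over all 18 arrays and moderated with limma 3.58.1 in R 4.3.3. Tests were limited to probes that stood well above background throughout at least 1 of the groups compared. Benjamini-Hochberg adjustment ran over all probes tested, and an adjusted p under 0.05 was past the threshold. The number of arrays, the outlier spots and the slides limit the precision. The fit was tested on simulated data.

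The 10 genes, the 6 lists and the tests were chosen with earlier results of these data known. All 10 genes were named, with the 3 widest calls of each list between ED and ES, the 2 widest in each comparison at 4 h, and Cdk4, Cdk6, Cdkn1a, Ccng1 and Wee1 always. Groups and replicate numbers came from the labels. Replicate numbers did not pair the samples (correlations of same-numbered deviations -0.372 to 0.215). The random effect of slide had a correlation of 0.642 over 18277 probes. Promoters came from RefSeq (GRCm38.p6) and were searched with Python 3.11.15. The 16 planned and 21 added alternatives covered scaling, background, filters, outlier spots, blocks, the methods' t-test and left-out samples.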

Additional observations from a re-analysis of the deposited data

How the results depend on the processing

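Counts of the 10 genes past the threshold were recomputed under 16 planned and 21 added alternatives, the latter chosen after the data were seen. Of the counts, 243 planned and 167 added ones stayed within 1.5 times the reported count, and 52 and 22 did not. No change of a called gene reversed its direction. Between ED and ES, 7 genes became 4 with a fold limit and 4 with marked spots kept and the slide as a random effect. For ESRE against ES, 0 became 1 (Cdk1) without EDRE samples 2 and 3 and ESRL sample 1, with marked spots left out or kept, and 2 in the methods' t-test without adjustment. For ESRL against ES, 0 became 1 with median scaling (also with marked spots kept) and in the authors' table, and 3 in the unadjusted t-test, and it was 0 to 1 when a sample was left out (1 without ESRL sample 2). For EDRE against ED, 1 became 2 in the authors' table and with median scaling and marked spots kept, and 0 with the slide as a random effect, with the compared groups alone, in the adjusted t-test and without the 3 samples named above. It was 0 to 2 when a sample was left out, and 0 to 7 with marked spots kept, where 7 and 2 are the counts without EDRE sample 1. For EDRL against ED, 0 became 2 with quantile normalization, 1 with probes well above background on all arrays, 3 with the compared groups alone, 1 and 4 in the adjusted and unadjusted t-test and 3 without the 3 samples, and it was 0 to 1 when a sample was left out (1 without ESRL 1, ED 1 or any EDRE sample). For ESRL against ESRE, 0 became 2 in the unadjusted t-test and 1 without the 3 samples with marked spots kept, and it was 0 to 1 when a sample was left out (1 without ESRL 2 or EDRE 1). For EDRL against EDRE, 2 became 1 without a detection filter, with the replicate block, with a fold limit, with the slide as a fixed block and in the unadjusted t-test, and 0 with the compared groups alone and in the adjusted t-test. It was 1 to 2 when a sample was left out (1 without any ES, ESRE 1, ED 2, ED 3, EDRE 2, EDRE 3 or any EDRL sample), and 6 with marked spots kept without EDRE sample 1. The difference between cell types at 15 min was 0 to 2 genes when a sample was left out and up to 5 with marked spots kept (2 and 5 without EDRE sample 1). At 4 h it became 1 without the 3 samples and was 0 to 1 when a sample was left out (1 without EDRE sample 1). These counts stand without the share of all probes past the threshold under the same alternative. The causes were not tested. The replicate block left Ccnb1 in EDRL against EDRE at -0.85 (adjusted p = 0.0671) and changed no other call, and 1 of 18 arrays correlated best with arrays of its own number. With 3 samples a group and spots near background on EDRE arrays, most changes of 2-fold or less, and some larger ones, could be missed.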
